A study of Arabidopsis thaliana with 54 samples.

Results

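Late-numbered microRNAs are the features of this small RNA data set whose family number is 1000 or higher. They were picked by number alone: of 286 microRNA features with at least 1 count, 101 had a family number in that range, and 92 features from 75 families remained after the families miR2111, miR3932, miR5595, miR5634, miR5642 and miR5654 were left out. For comparison, 185 microRNA features carried a number under 1000. A feature here is 1 mature sequence, and 6 of the 92 join several names that share their sequence.

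Plant microRNAs are cut by DICER-LIKE1 from the folded arm of a hairpin transcript, loaded into an ARGONAUTE protein and guided by base pairing to transcripts that are sliced or translated less. Families are numbered in the order in which they were registered. Low numbers therefore tend to belong to abundant families shared by many land plants, and high numbers to families found later by deep sequencing, many of them known from few species. For most late-numbered microRNAs of Arabidopsis no function is established, so no target is named for them here.

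The libraries came from whole Arabidopsis thaliana seedlings of the accession Columbia 0, roots included. All seedlings were stratified for 48 h and grown for 10 days in 12 h of light and 12 h of darkness. On day 11 they were moved to long day (16 h of light, 8 h of darkness), kept in equinox day (12 h and 12 h) or moved to short day (8 h of light, 16 h of darkness), and they were harvested on day 13 at Zeitgeber time (ZT, hours after lights on) 4, 8, 12, 16, 20 or 24. Each of the 18 groups had 3 libraries, named A, B and C, which gave 18 libraries per photoperiod and 54 in all. The labels do not say whether replicates were grown on separate plates, and p-values then cover only how far these libraries spread. In whole seedlings, fewer cells that make a microRNA and less of it per cell cannot be told apart.

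Counts outside a single pooled entry named genome came to 1333843 to 3585724 per library (median 2324057), and microRNA counts to 114873 to 409911. Levels are in CPM, that is, counts scaled to a common library total, here after TMM scaling. No length correction was applied, since the members are 19 to 24 nt long. On plain totals outside the genome entry, 3 counts correspond to 0.837 CPM in the deepest library and to 2.25 CPM in the shallowest. On the TMM-scaled totals used for levels, 3 counts came to 1.21 CPM in the deepest library (short day ZT 16 C). In the shallowest (short day ZT 4 B), 1 count came to 0.624 CPM. Of the short-day libraries, 5 stood apart on the first principal component, further out than any library of the other photoperiods: replicate A of ZT 20, replicate B of ZT 4 and ZT 16, and replicate C of ZT 12 and ZT 24. Only short-day libraries could be picked this way, on the side of the axis where their mean lay. The choice came from these same data, so leaving these 5 out can by itself draw short day toward the other photoperiods. The genome entry held 88.9% to 92.9% of the counts of these 5, against 79.6% to 90.5% in the other 49. Members with an unadjusted p under 0.05 in a contrast with short day are therefore also given without these 5.

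The sequences that carry most of the results are shown with the seed (bases 2 to 8) in capitals, from 5′ to 3′, as RefSeq annotates them on the TAIR10.1 assembly. The first is the dominant member, the next 5 are the members that passed a photoperiod test, and the last 3 are other abundant members.
miR5026: aCUCAUAAgaucgugacacgu
miR5650: uUGUUUUGgaucuuagauaca
miR5643a/b: aGGCUUUUaagaucugguugc
miR5659: cGAUGAAGgucuuuggaacggua
miR1886.2: uGAGAUGAaaucuuugauugg
miR5637: aAUGCGCAacucuauauuucc
miR3434-5p: aCUUGGCUgauucuauuauu
miR5024-3p: cCGUAUCUuggccuugucauu
miR5012: uUUUACUGcuacuuguguucc

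No pair among these 9 shared a seed. Among all 92 members, the seed GAGAGAA was shared by miR1886.1 and miR5640 and the seed GGAAGAA by miR5020a and miR5641. None of the 92 members lay within 2 edits of another microRNA in the table, whereas 60 of the 185 lower-numbered features did. Most members were 21 nt long, 71 of 92 (77.2%, against 76.8% of the lower-numbered features), and 2 were 24 nt long. A 5′ U, the base favoured by ARGONAUTE1, began 43 members (46.7%, against 62.7%), and a 5′ A, favoured by ARGONAUTE2, began 35 (38.0%, against 13.5%). The median G and C content was 38.1%, against 42.9%.

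Of the 92 members, 52 overlapped another annotated gene, against 51 of the 185 lower-numbered features. A member could overlap more than 1 gene: 20 lay in a sense exon, 20 in a sense intron, 10 in an antisense exon and 5 in an antisense intron. Exact matches at more than 5 places in the assembly were found for 9 members, against 4 lower-numbered features. The sources used here do not say whether reads that match several places were dropped, split or counted more than once, so levels of these members are uncertain.

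The member miR5026 held almost all counts of the set. Of 641458 counts on the 92 members, 609972 (95.1%) fell on miR5026, which is 93.8 times the 6503 counts of miR3434-5p, the next by count. With a mean of 4792 ± 1718 CPM (SD, n = 54) it ranked 6 among all 286 microRNA features, and the next member by mean level, miR5650, ranked 58. The mature sequence of miR5026 lies at chr4:7844612-7844632 on the plus strand (TAIR10.1), in an intron of the noncoding gene AT4G13495, and it has 1 further exact match, at chr5:14318730-14318750 on the minus strand, where no gene is annotated. The microRNAs miR850 and miR863 lie 1144 and up to 2223 bases from it in the same stretch. They held 20.8 CPM (miR850), 0.98 CPM (miR863-5p) and 1.05 CPM (miR863-3p, known in Arabidopsis for a role in immunity).

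**Figure D1:**
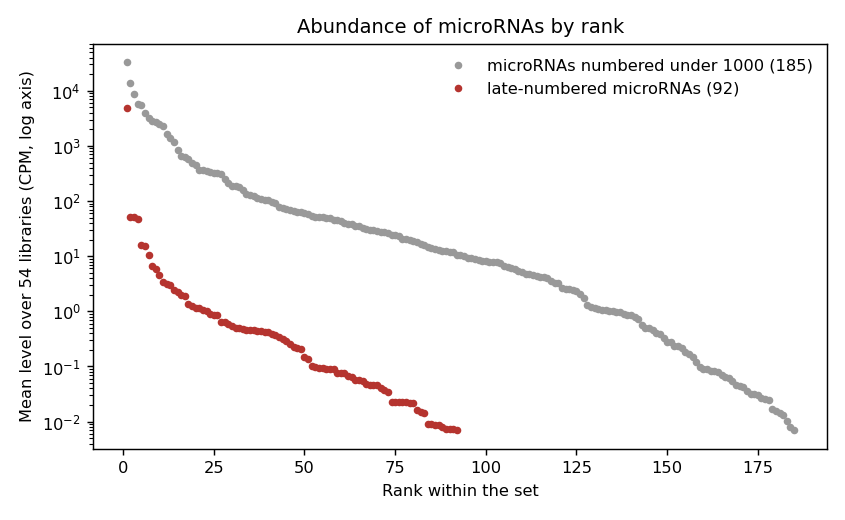
Mean level in CPM over 54 libraries on a log axis, against the rank of each microRNA within its set. The 92 late-numbered microRNAs are in red and the 185 microRNAs numbered under 1000 in grey. A single late-numbered microRNA, miR5026 at 4792 CPM, stands far above the next, miR5650 at 51.1 CPM, while the grey points fall off gradually.

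After miR5026, 3 members reached about the same level. The first is miR5650, at 51.1 ± 22.0 CPM, which lies at chr2:19686959-19686979 on the plus strand in an intron of EDA4, annotated as a lipid-transfer protein family member. The second is miR3434-5p, at 51.0 ± 18.8 CPM, from chr5:7583305-7583324 on the minus strand in an intron of the alpha-adaptin gene AT5G22770. The third is miR5643a/b, at 46.9 ± 20.3 CPM, which 2 hairpins at chr5:11667857-11667877 (plus strand) and chr5:11757142-11757162 (minus strand) can give. Its sequence occurs 15 times in the assembly, 13 of them on chromosome 5 between 11667857 and 12062889. Their means differed by less than the SD of each over libraries, so no order among these 3 is given.

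A further group lay near 5 to 16 CPM. It held miR5024-3p at 16.1 ± 4.89 CPM, from an intron of the amino acid permease gene AAP5, and miR5012 at 15.2 ± 6.30 CPM, which overlaps no other gene. Below these came miR1886.2 at 10.5 ± 5.01 CPM, from an exon of the WD40 repeat protein gene AT2G37160. They were followed by miR5996 at 6.57 ± 4.06 CPM, from an exon of UNE15, by miR5651 at 5.87 ± 2.43 CPM and by miR5640 at 4.61 ± 2.11 CPM, from an intron of the callose synthase gene CALS1. The other 7 members that passed edgeR's filter on low counts had means of 1.86 CPM (miR5028) to 3.36 CPM (miR5659).

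Where both arms of a hairpin were counted, 1 arm often took most counts. For miR3434 the 5p arm had 6503 counts and the 3p arm 60, and for miR5024 the 5p arm had 12 and the 3p arm 2047. The arms were closer for miR2112 (119 on 5p and 65 on 3p) and for miR3440b (55 and 108). The hairpin of miR1886 gives a pair of overlapping products whose starts differ by 9 bases, and miR1886.2 had 1364 counts against 408 for miR1886.1.

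Most members were rare. A total count of at least 100 over the 54 libraries was reached by 26 members, 34 had 10 to 99 and 32 had fewer than 10, of which 9 had a single count. The median total was 31 counts, against 1366 for the lower-numbered features. Only 14 members were counted in all 54 libraries, 43 in at least 27, and 28 in 5 or fewer. A mean of at least 10 CPM was reached by 7 members, 16 lay between 1 and 10 CPM and 69 lay under 1 CPM. Filtering for a count of about 10 in enough libraries left 17 of 92 members for testing (18.5%), against 127 of 185 lower-numbered features (68.6%).

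By number, the 15 members from miR5012 to miR5028 held 95.8% of member counts, through miR5026. The 34 members from miR5628 to miR5666 held 2.41%, and the 4 members of the families miR3434 and miR3440 held 1.05%. The 20 members from miR8121 to miR8184 had 982 counts in all, and none of them passed edgeR's filter. Nor did the 6 members from miR2112 to miR2936 or the 5 from miR4221 to miR4245. The 75 members that did not pass together held 2723 counts (0.425% of member counts). The most counted among them were miR5663-5p with 176 counts in 45 libraries, miR8182 with 156 in 47, miR8166 with 145 in 46, miR1888b with 145 in 49, miR5633 with 133 in 42 and miR8183 with 130 in 47. These 6 did not pass the filter of the test used here. Under a filter of 1 CPM in 27 libraries miR8182 passed, and its log2 fold change of short day against equinox day was -1.28 ± 0.33 (SE, adjusted p = 0.00354). That value rests on few counts per library. It was not fitted without the 5 short-day libraries that stand apart or without single libraries. A 0 in a library allows up to 3 counts.

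The late-numbered microRNAs together took 4.80% ± 0.88 of microRNA counts (SD over 54 libraries, range 3.32% to 6.63%). The share was 4.37% ± 0.88 under long day, 4.85% ± 0.87 under equinox day and 5.18% ± 0.73 under short day (n = 18 each), and the 3 ranges overlapped. Without the 5 libraries that stand apart, short day gave 5.22% ± 0.72 (n = 13). Long day minus short day gave -0.805 percentage points, about as much in size as the SD within a photoperiod. Without miR5026 the share was 0.249% ± 0.029 of the remaining microRNA counts, with means of 0.257% under long day, 0.247% under equinox day and 0.241% under short day. These shares sum over members, so they are given with no test. They also move with the lower-numbered microRNAs in the denominator.

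**Figure D2:**
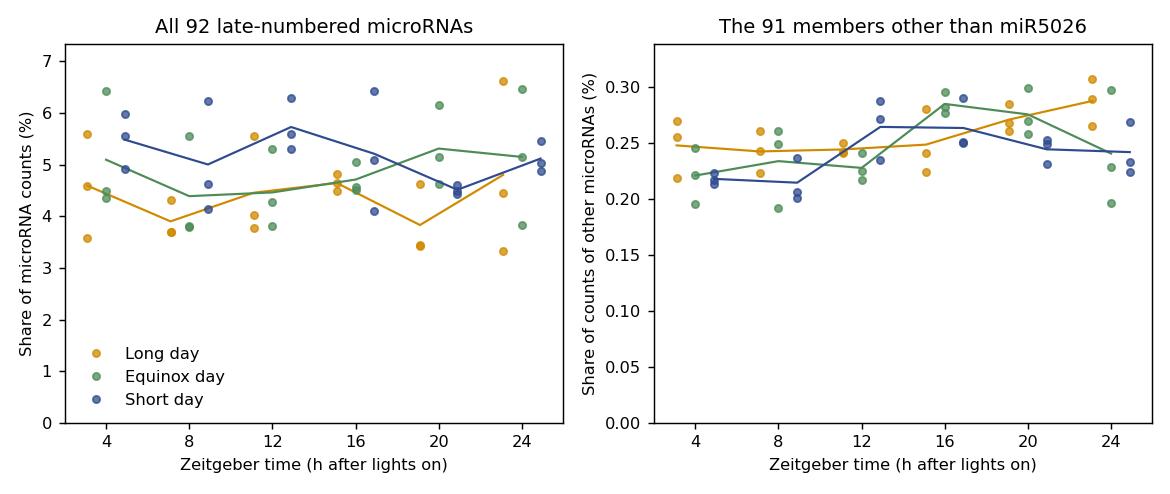
Share of microRNA counts, in percent, for each of the 54 libraries (points) against Zeitgeber time in hours, with lines through the means of 3 libraries and photoperiods in colour and offset sideways. Left, all 92 late-numbered microRNAs, 3.32% to 6.63%; right, the members other than miR5026 as a share of the microRNA counts other than miR5026, 0.192% to 0.308%.

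The share of member counts on miR5026 was at least 91.5% in every library (mean 94.9% ± 1.29, highest 96.9%). It averaged 94.1% ± 1.41 under long day, 94.9% ± 1.30 under equinox day and 95.5% ± 0.71 under short day. Between 29 and 55 members were counted per library. When each library was thinned to 114873 microRNA counts, the expected number was 31.9 ± 3.21, with 31.6 ± 2.01 under long day, 30.5 ± 3.57 under equinox day and 33.6 ± 3.21 under short day. Without the 5 libraries that stand apart, the short-day number was 32.9 ± 3.28. The ranges of the 3 photoperiods overlapped (24.3 to 39.1 over all libraries).

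Long day was compared with short day as means over the 6 times of each, by the quasi-likelihood test of edgeR, with p-values adjusted after Benjamini and Hochberg over all 8869 tested features and a threshold of 0.05. Long day put more of the 6 times in light, and the part of light itself in the contrasts was not tested. Of the 17 tested members 3 passed, 1 higher and 2 lower under long day. Over all features tested 25.1% passed, 10.8% higher and 14.4% lower, and over the lower-numbered microRNAs 29.9%. The median log2 fold change of the 17 members was -0.09, against -0.02 for all features and -0.17 for the lower-numbered microRNAs.

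The member that was higher under long day was miR5650. It ranged from 32.5 to 80.3 CPM under long day (median 50.8), from 19.9 to 123 CPM under equinox day (median 54.1) and from 13.3 to 77.5 CPM under short day (median 31.1). The short-day libraries lay lowest, and all 3 ranges overlapped. The log2 fold change of long day against short day was 0.58 ± 0.20 (SE, adjusted p = 0.0301), with long day higher at 5 of 6 times. Without the 5 short-day libraries that stand apart it was 0.37 with an adjusted p of 0.307. With a covariate for the genome entry's share it was 0.50 with an adjusted p of 0.0672. The 5 libraries that stand apart had a mean of 30.7 CPM, and the other 13 short-day libraries 42.0 ± 20.1 CPM. The call was also lost in 10 of 54 fits without a single library (adjusted p 0.0507 to 0.0771): long day ZT 4 B, ZT 8 A or ZT 24 C, and short day ZT 4 A, ZT 4 B, ZT 8 C, ZT 12 C, ZT 16 B, ZT 20 A or ZT 24 C.

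Lower under long day were miR5637 and miR1886.2. The first, from an intron of AT2G28620 at chr2:12270341-12270361 (minus strand), was rare, with 0.37 to 3.75 CPM under long day (median 1.55), 0.41 to 4.84 CPM under equinox day (median 2.14) and 1.18 to 5.47 CPM under short day (median 2.39). Its log2 fold change was -0.73 ± 0.27 (adjusted p = 0.0375), with long day lower at 6 of 6 times. It rests on 289 counts over all libraries, so a library gave few counts. Long-day libraries held at most 3.75 CPM, so the member passed the filter on low counts through higher libraries of the other photoperiods. Such a filter can favour a call in this direction. With the microRNAs fitted alone the member was not tested. The call was lost in 11 of 54 fits without a single library (adjusted p 0.0518 to 0.0691): long day ZT 4 A, ZT 4 C, ZT 8 C, ZT 12 C, ZT 16 B or ZT 20 A, and short day ZT 8 B, ZT 12 A, ZT 16 B, ZT 20 A or ZT 24 B. Left without the 5 libraries that stand apart, the contrast gave -0.76 and an adjusted p of 0.0841, and with the genome entry kept in the totals the adjusted p was 0.0947.

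Under long day miR1886.2 ranged from 3.74 to 16.9 CPM (median 8.47), under equinox day from 2.74 to 20.2 CPM (median 8.28) and under short day from 4.25 to 22.3 CPM (median 14.3). Short-day libraries lay highest, with wide overlap. Its log2 fold change was -0.57 ± 0.22 (adjusted p = 0.0455), with long day lower at 5 of 6 times. The call lay close to the threshold and was lost in 21 of 54 fits without a single library (adjusted p 0.0503 to 0.0892). These libraries were long day ZT 4 A and B, ZT 8 A, B and C, ZT 12 A and C, ZT 16 B and C, ZT 20 A and B and ZT 24 A and C, and short day ZT 4 A, ZT 8 B and C, ZT 12 C, ZT 16 C, ZT 20 A and B and ZT 24 A. Left without the 5 libraries that stand apart, the contrast gave -0.64 and an adjusted p of 0.0803. With the genome entry kept in the totals the adjusted p was 0.113, and with the replicate block it was 0.0547. The overlapping product miR1886.1 showed a log2 fold change of -0.05 ± 0.25, with a 95% interval of -0.54 to 0.45; the difference between both products was not tested.

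Of the other 14 members, 3 had an unadjusted p under 0.05 and missed the adjusted threshold. The dominant miR5026 ranged from 2734 to 8428 CPM under long day (median 3696), from 3493 to 12646 CPM under equinox day (median 4994) and from 3041 to 8441 CPM under short day (median 4643). Long-day libraries lay lowest, with overlap. Its log2 fold change of long day against short day was -0.32 ± 0.15 (adjusted p = 0.108), lower at 6 of 6 times. Its call depended on method and on libraries, and it passed in 5 of 12 other settings. The adjusted p was 0.0309 with DESeq2. In edgeR's test it was 0.0388 with DESeq2 size factors, 0.0277 without TMM factors and 0.0296 with a covariate for the genome entry's share. Among the settings that miR5026 did not pass, the microRNAs fitted alone gave -0.18 (adjusted p = 0.200). The genome entry kept in the totals gave -0.26 (adjusted p = 0.244), and leaving out replicate C gave -0.19 (adjusted p = 0.535). Without long day ZT 24 B, its highest long-day library, the adjusted p was 0.0269. Without the 5 short-day libraries that stand apart the log2 fold change was -0.51 with an adjusted p of 0.0393. The 5 libraries held 3361 to 4419 CPM of miR5026, and the other 13 had a mean of 5558 ± 1500 CPM. Another was miR5012, at -0.41 ± 0.19 (adjusted p = 0.108). It passed in 4 of 12 other settings, among them DESeq2 (adjusted p = 0.0262) and the microRNAs fitted alone (adjusted p = 0.0466). Without the 5 libraries it gave -0.54 and an adjusted p of 0.0883. The last was miR1888a, from an intron of the ascorbate oxidase gene AT5G21100, with 0.60 ± 0.26 (adjusted p = 0.0881). Its adjusted p was 0.0488 without short day ZT 20 B and 0.00912 with the microRNAs fitted alone. Without the 5 libraries it gave 0.42 and an adjusted p of 0.429.

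**Figure D3:**
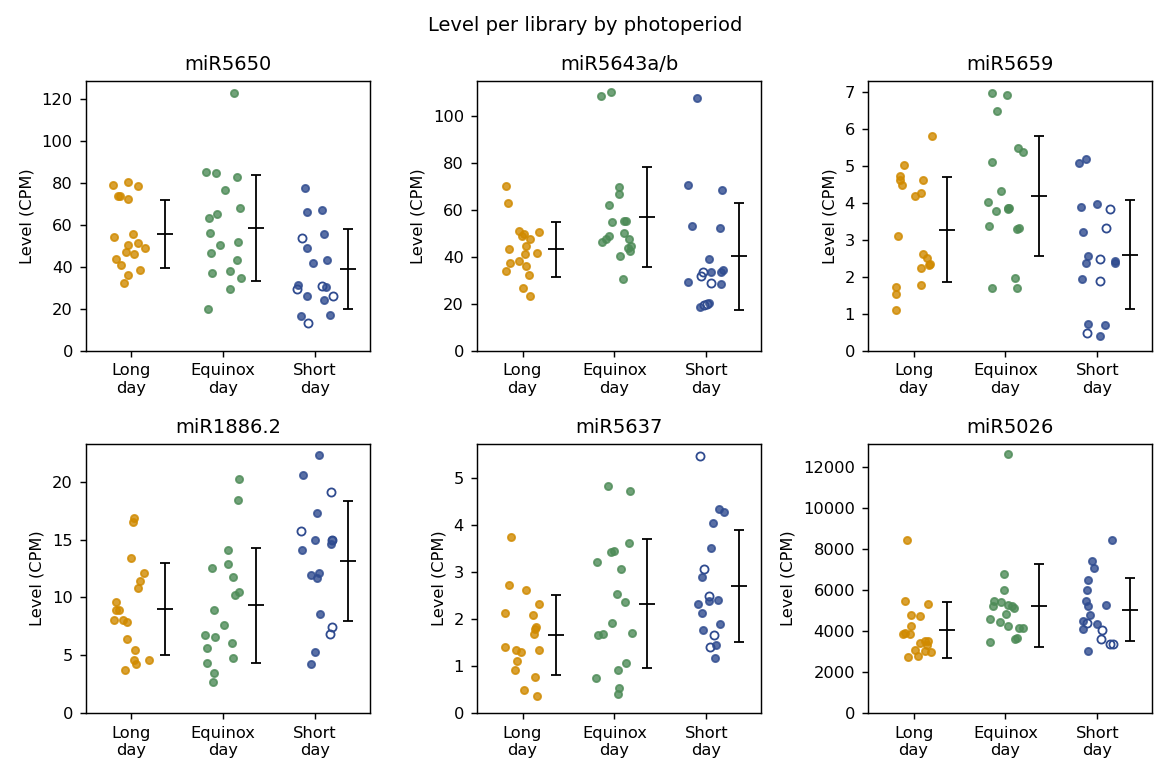
Level in CPM of the 5 members that passed a photoperiod test and of miR5026, for each library (points) by photoperiod, with mean and SD beside them (black, n = 18) and all axes from 0. Open circles are the 5 short-day libraries that stand apart. Short-day libraries lie low for miR5650, mean 38.9 CPM, and high for miR1886.2, mean 13.2 CPM, and the groups overlap in every panel.

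Long day against equinox day compared seedlings moved to longer days with those left in the starting photoperiod. None of the 17 members passed edgeR's test (2 at an unadjusted p under 0.05), and with DESeq2 1 (miR5026) passed, while 15.7% of all features and 7.09% of the lower-numbered microRNAs did. The smallest p was that of miR5026, at -0.36 ± 0.15 on the log2 scale (adjusted p = 0.0963) and lower under long day at 5 of 6 times. Here too the call changed without long day ZT 24 B (adjusted p = 0.0221). With the microRNAs fitted alone miR5026 gave -0.22 (adjusted p = 0.217), and with the genome entry kept in the totals -0.19 (adjusted p = 0.469). In edgeR's test it passed without TMM factors (adjusted p = 0.0234) and with a covariate for the genome entry's share (adjusted p = 0.00683). For miR5643a/b the log2 fold change was -0.38 ± 0.17 (adjusted p = 0.137, and 0.0420 with that covariate). The median over the 17 members was -0.14, against -0.07 for all features.

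Short day against equinox day compared seedlings moved to shorter days with the same equinox libraries. Of the 17 members 3 passed and all 3 were lower under short day, while 32.8% of all features passed, 17.2% higher and 15.6% lower, and 17.3% of the lower-numbered microRNAs. The median log2 fold change of the 17 was -0.04, against 0.03 for all features. Since both contrasts with short day use the same short-day libraries, miR5650 passing in both is not independent.

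With the ranges given above, miR5650 changed by -0.66 ± 0.20 on the log2 scale (adjusted p = 0.0106), lower under short day at 6 of 6 times, and it passed in all 54 fits without a single library. For miR5643a/b the equinox-day libraries ranged from 30.5 to 110 CPM (median 49.5), the short-day libraries from 18.6 to 108 CPM (median 33.6) and the long-day libraries from 23.2 to 70.2 CPM (median 42.6). Its log2 fold change was -0.52 ± 0.17 (adjusted p = 0.0191), lower at 4 of 6 times. For miR5659, from chr5:16409804-16409826 on the minus strand outside other genes, equinox-day libraries ranged from 1.69 to 6.97 CPM (median 3.86), short-day libraries from 0.39 to 5.20 CPM (median 2.46) and long-day libraries from 1.11 to 5.81 CPM (median 2.86). Its log2 fold change was -0.66 ± 0.24 (adjusted p = 0.0327), lower at 5 of 6 times. This member was rare: its highest library, equinox day ZT 24 C, gave 13 counts. It passed the filter on low counts mainly through higher libraries of the other photoperiods. As for miR5637, such a filter can favour a call in this direction.

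None of these 3 calls held without the 5 short-day libraries that stand apart. The log2 fold changes were then -0.45 for miR5650 (adjusted p = 0.131), -0.28 for miR5643a/b (adjusted p = 0.282) and -0.54 for miR5659 (adjusted p = 0.134). These 5 were picked from the same data for lying far out on the short-day side, so the loss is no independent test of the calls. In these 5 libraries miR5643a/b held 19.7 to 33.7 CPM and miR5659 0.47 to 3.84 CPM. With the genome entry kept in the totals, the calls of miR5643a/b (adjusted p = 0.0577) and miR5659 (adjusted p = 0.0566) were lost and miR1886.2 passed (adjusted p = 0.0402). With the filter of 1 CPM in 27 libraries, miR5659 was lost (adjusted p = 0.0573). Single libraries also ended calls. For miR5643a/b these were equinox day ZT 16 C and short day ZT 4 A, ZT 4 B, ZT 12 C, ZT 16 B or ZT 24 C (adjusted p 0.0530 to 0.0676). For miR5659 they were equinox day ZT 8 A, ZT 8 B, ZT 16 A, ZT 16 C or ZT 20 C and short day ZT 4 A, ZT 4 B, ZT 8 C, ZT 12 B or C, ZT 16 B or ZT 24 C (adjusted p 0.0510 to 0.0796). In this contrast miR1886.2 had a log2 fold change of 0.51 ± 0.22 and missed the threshold (adjusted p = 0.0627). Without the 5 short-day libraries that stand apart, miR1886.2 gave 0.58 and an adjusted p of 0.0793. It passed in 12 of the 54 fits without a single library (adjusted p 0.0178 to 0.0497), namely without equinox day ZT 4 C, ZT 8 B, ZT 12 A, ZT 16 C, ZT 20 A or ZT 24 A, or short day ZT 4 B, ZT 8 A, ZT 12 A, ZT 16 B, ZT 20 C or ZT 24 C.

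**Figure D4:**
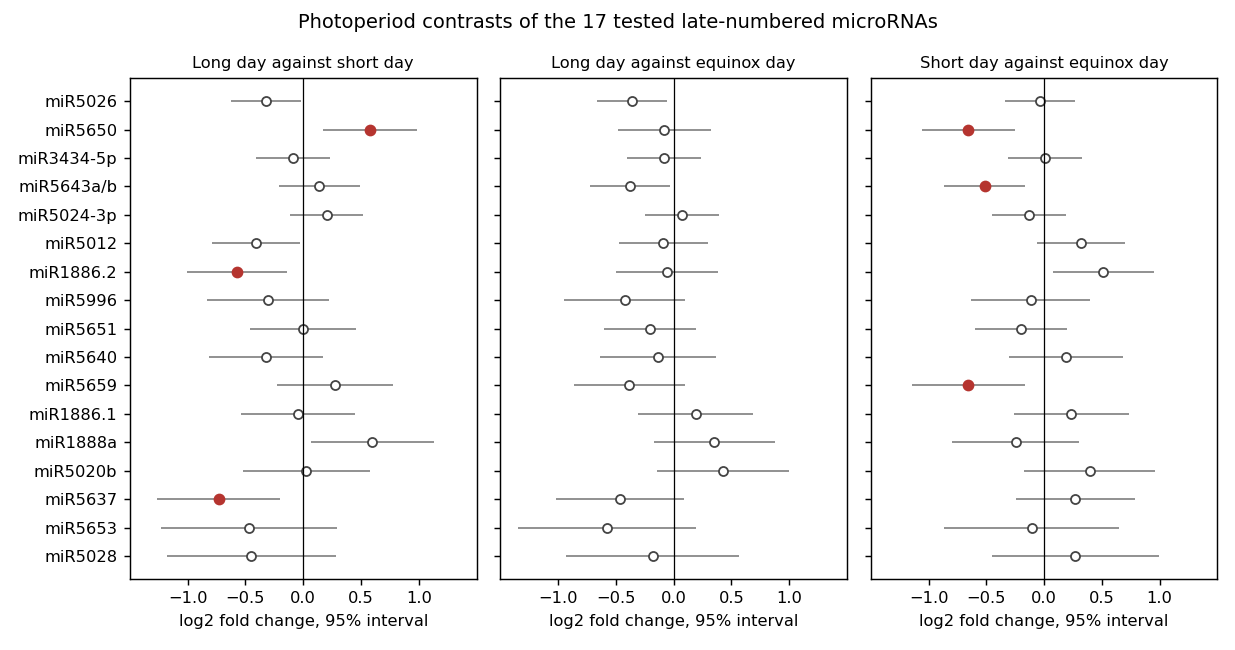
Log2 fold change (points) with 95% interval (lines) of the 17 tested late-numbered microRNAs in the 3 photoperiod contrasts, ordered from the highest mean level at the top. Filled red points passed an adjusted p of 0.05: 3 in long day against short day, none in long day against equinox day and 3 in short day against equinox day.

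The intervals show which sizes of change the data leave for members that did not pass. For miR3434-5p, as abundant as miR5650, the log2 fold change of long day against short day was -0.09, with an interval of -0.41 to 0.23, and that of short day against equinox day 0.01, with an interval of -0.31 to 0.33. For miR5024-3p the interval of long day against short day was -0.12 to 0.52. For the rare miR5653, counted 249 times, it was -1.23 to 0.29.

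The 6 times of a photoperiod were tested jointly, and no member passed in any photoperiod with edgeR's quasi-likelihood test. Under long day 0 of 17 members had an unadjusted p under 0.05, under equinox day 2 and under short day 1, while 13.3%, 5.2% and 3.99% of all features passed the adjusted threshold in the 3 tests. DESeq2's likelihood ratio test passed 0 members under long day, 1 under equinox day and 0 under short day. The test of whether time profiles differ between photoperiods passed no member (1 with an unadjusted p under 0.05, and 0 with DESeq2), against 5.92% of all features.

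The 2 members with an unadjusted p under 0.05 across the times of equinox day were miR5020b (adjusted p = 0.192) and miR3434-5p (adjusted p = 0.203). For miR3434-5p the means were 29.7 ± 6.01 CPM at ZT 4, 40.9 ± 2.06 at ZT 8, 48.0 ± 6.36 at ZT 12, 60.4 ± 9.92 at ZT 16, 66.2 ± 8.26 at ZT 20 and 69.5 ± 34.1 CPM at ZT 24 (SD, n = 3). The 3 libraries at ZT 4 held 23.1, 31.2 and 34.9 CPM, all below the 59.4, 63.8 and 75.4 CPM at ZT 20. At ZT 24 they spread from 39.8 to 107 CPM. With DESeq2 the adjusted p of miR3434-5p was 0.0374, and without TMM scaling it was 0.00333. Under long day and short day this member had adjusted p-values of 0.345 and 0.740.

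The lowest p in the interaction test belonged to miR5020b (adjusted p = 0.178). Under equinox day its level was 2.94 ± 1.86 CPM at ZT 8, 0.76 ± 0.44 at ZT 12 and 0.79 ± 0.31 at ZT 16, then 3.25 ± 1.63 CPM at ZT 20. Under short day the lowest mean, 1.13 ± 0.70 CPM, was at ZT 8, and under long day the lowest, 1.21 ± 0.65 CPM, was at ZT 20. All these levels rest on a few counts per library. Under short day, the only member with an unadjusted p under 0.05 was miR5996, with 3.04 ± 1.62 CPM at ZT 8 and 12.5 ± 6.23 CPM at ZT 24 (adjusted p = 0.380).

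**Figure D5:**
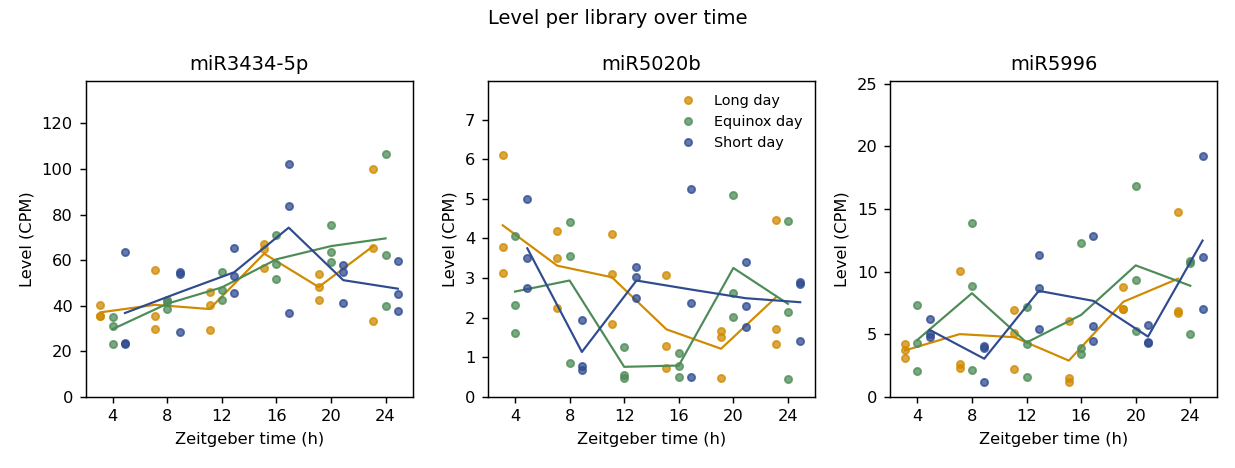
Level in CPM of miR3434-5p, miR5020b and miR5996 for each library (points) against Zeitgeber time in hours, with lines through the means of 3 libraries and photoperiods in colour and offset sideways. Under equinox day miR3434-5p goes from 29.7 CPM at ZT 4 to 69.5 CPM at ZT 24, where its 3 libraries spread widest.

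For miR5026 the means over time ran from 3329 ± 218 CPM at ZT 20 of long day to 7544 ± 4420 CPM at ZT 24 of equinox day. That highest mean rests on library A with 12646 CPM, since B and C held 5138 and 4850 CPM. The same library held the highest level of 4 of the 17 tested members, namely miR5026, miR3434-5p (107 CPM), miR5024-3p (35.6 CPM) and miR5651 (13.8 CPM). Library C of that group held the highest level of another 3, miR5643a/b (110 CPM), miR5650 (123 CPM) and miR5659 (6.97 CPM). No time test of miR5026 passed (adjusted p = 0.779 under long day, 0.587 under equinox day and 0.999 under short day).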

How the data were processed

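The authors deposited 1 table of read counts per feature and library, whole numbers in all 54 columns. Tools named in the submitters' processing notes are Bowtie2 2.5.1, cutadapt 3.4 and SAMtools. Not given in the sources used here are their settings, the build, how features were counted and what was done with reads of several matches. Per the labels' protocols, RNA of integrity number 7 or more from about 200 mg of tissue was size-selected to 40 nt or less. The genome entry (86.1% of counts) names no gene and stayed out of totals and tests.

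The model was built in edgeR 4.0.16 under R 4.3.3, had 18 group coefficients, and used TMM factors and the filterByExpr filter (minimum count 10, minimum total 15), which left 8869 of 223651 features. All p-values named adjusted come from its quasi-likelihood test over these features unless DESeq2 1.42.0 is named. Levels are CPM on TMM-scaled totals, and intervals are 95%.

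Mature sequences and positions were read by microRNA name from RefSeq TAIR10.1, where the names of all 92 members were found. Detection at equal depth is the expected number of members with a count after drawing 114873 microRNA counts without replacement. Shares, detection and dominance had been planned with permutation tests, but they are scores over the members and are given as values. The labels do not say that replicate letters pair the libraries, so the main fit treated them as unpaired. No 2 replicates of a group agreed within sampling noise.

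Members named are those past the threshold in any contrast, the 10 with the highest mean CPM and the 6 most counted members that did not pass the filter. Others were named after their values were seen: miR1888a, miR5020b, miR5028, miR5653, miR1886.1, those with arm counts and those with shared seeds. The members and lists were chosen with earlier results of these data known. Alternatives were other scalings, filters, DESeq2, a replicate block, a covariate and leaving out libraries.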

Additional observations from a re-analysis of the deposited data

How the results depend on the processing

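No alternative reversed the direction of any member's log2 fold change among the 12 member and contrast pairs with an unadjusted p under 0.05. The number of members called in long day against short day was 3, and became 5 with DESeq2 size factors, with the microRNAs fitted alone and with DESeq2, 1 with the genome entry kept in the totals and 1 without the 5 short-day libraries that stand apart. In long day against equinox day it was 0, and became 1 without TMM factors, 2 with a covariate for the genome entry's share and 1 with DESeq2. In short day against equinox day it was 3, and became 5 with the microRNAs fitted alone, 4 with DESeq2 size factors, without TMM factors, with the 1 CPM filter and with DESeq2, 2 (1 higher, 1 lower) with the genome entry kept in the totals and 0 without the 5 libraries. Under equinox day, 2 members passed the time test without TMM factors (miR3434-5p and miR5012), 1 with the microRNAs fitted alone and 1 with DESeq2 (miR3434-5p in both). With the microRNAs fitted alone, 1 member (miR5643a/b) passed under short day and 1 in the interaction test, and without TMM factors 1 (miR1886.2) passed in the interaction test. The causes of these changes were not tested. Fits that left out 1 library or all libraries of 1 letter gave 0 to 4 called members in long day against short day, 0 to 1 in long day against equinox day and 0 to 4 in short day against equinox day, and 0 in the time and interaction tests. Leaving out letter A, B or C, which removes 18 libraries, left 0, 0 and 0 members in long day against short day and 3, 0 and 0 in short day against equinox day.

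With the replicate block the counts were 2 in long day against short day and 3 in short day against equinox day, and miR1886.2 lost its call (adjusted p = 0.0547). The labels do not say what the letters share. Deviations of same-letter libraries from their group means had a mean correlation of -0.0098 over 459 pairs. Of these pairs 34.0% lay above 0.1, and the lowest was -0.61. Only 16 of 54 libraries correlated best with their own letter. Such means cannot show whether some libraries of a letter shared a batch. With the genome entry kept in the totals, the median of all features was 0.11 in long day against short day, 0.13 in long day against equinox day and 0.09 in short day against equinox day, against -0.02, -0.07 and 0.03. A filter of 1 CPM in 27 libraries added miR8182, which fell by 1.28 on the log2 scale in short day against equinox day (adjusted p = 0.00354). The fit with no filter was not run. Some differences in shares and detection between photoperiods changed direction in the alternatives run. Some alternatives had smaller scales, so sizes are not judged. Detection in long day minus equinox day went from 1.11 to -0.28 members without thinning and -0.44 with at least 10 counts, and in short day minus equinox day from 3.04 to 0.17 with at least 10 counts. Without miR5026 the share differed by 0.016, 0.0097 and -0.0062 percentage points in the 3 contrasts, against -0.805, -0.482 and 0.323, and as a share of all counts outside the genome entry short day minus equinox day gave -0.015. Without replicate A, B or C the share of microRNA counts in long day minus short day was -1.16 to -0.40 percentage points, in long day minus equinox day -0.66 to -0.21 and in short day minus equinox day 0.18 to 0.51; detection differed by -2.50 to -1.56, 0.65 to 1.70 and 2.55 to 3.42 members, and the share of miR5026 by -1.63 to -1.14, -0.96 to -0.61 and 0.40 to 0.71 points. Depth limits the 75 members that did not pass the filter, whose totals were 1 to 176 counts.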
